A study of Homo sapiens with 8 samples.

Results

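The genes described here are 10 transcripts that ERK signalling is known to induce: ETV1, ETV4, ETV5, DUSP4, DUSP5, DUSP6, SPRY1, SPRY2, SPRY4 and SPRED1. They were taken by gene symbol from the probe annotation of the array, and all 10 were found among 21524 measured genes, on 15 of 50599 probes. RNA from NGP cells, an established human neuroblastoma line known to carry extra copies of MYCN, was measured on 8 single-colour Agilent arrays. The 4 mock arrays carry RNA from cells given a mock construct by lentivirus, and the 4 arrays labelled CFC1 carry RNA from cells given CFC1 cDNA the same way. All cells were grown in the same serum-containing medium and selected with puromycin. CFC1 encodes Cryptic, a membrane-anchored EGF-CFC protein that helps Nodal to bind its receptors. The labels do not say whether a group is a pool or 1 clone, nor whether its 4 samples were separate cultures, so the spread behind each p-value is that of these arrays and may be only technical.

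The RAS, RAF, MEK and ERK kinases pass growth factor signals from receptors at the membrane to the nucleus. Active ERK raises transcription of its own brakes: DUSP phosphatases remove phosphate from ERK, and Sprouty and SPRED proteins hold back RAS and RAF. It also raises ETV1, ETV4 and ETV5, the PEA3 group of ETS transcription factors, which carry the signal on and are repressed by capicua when ERK is quiet. In neuroblastoma this route is known to run downstream of ALK and of RAS pathway mutations, and mRNA of these genes is often read as its output.

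The arrays give differences, not levels. Each deposited value is a logarithm, read as log2, relative to a baseline per probe that is not stated, so no probe's level can be set against another's and the presence of a transcript cannot be judged. A positive difference means a higher value in the arrays labelled CFC1 than in the mock arrays. The transduced gene did not bear out the labels. CFC1 had 1 probe, with 0.47, 1.10, 0.12 and -0.027 in mock replicates 1 to 4 and 0.055, -0.69, -0.59 and -0.30 in the arrays labelled CFC1. The difference was -0.80 (SE 0.28, 95% interval -1.45 to -0.15, limma adjusted p = 0.0398), the groups overlapped, and the call was lost under 11 of 16 alternatives, the single-probe fit among them. Whether that probe lies within the transduced cDNA is unknown, so every direction below rests on the labels. The groups lay far apart over the whole array: 42.1% of all probes passed a limma adjusted p of 0.05, 20.0% in the positive and 22.1% in the negative direction.

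Most of the ERK output genes differed between the groups, and they did not move as a unit. ETV4, ETV5, DUSP4, DUSP5 and SPRY2 were higher in the arrays labelled CFC1, and ETV1 and DUSP6 were lower. SPRY1 was lower by a small margin, and its 2 probes lost their calls under 5 and 12 of 17 alternatives. SPRY4 was higher by one of its probes and did not pass by the other, and SPRED1 did not pass. Of the 15 probes, 6 were higher, 7 lower and 2 did not pass, where the background is 42.1% of probes called. The groups did not overlap on 13 of the 15, against 42.6% of all probes. Differences of at least 1 log2 unit with a call were found on 9 of the 15, 4 higher and 5 lower, against 15.6% of all probes. The 15 differences had a median of -0.16, with -0.14 over all probes, and their sizes had a median of 1.26, with 0.35 over all probes. Since 4 of the 7 lower probes are those of ETV1, the counts by gene are also given: from the mean of each gene's probes, 5 genes were higher, 3 lower and 2 did not pass, where 57.9% of all genes were called. The gene means did not overlap between the groups for 8 of the 10, against 56.5% of all genes. Differences of at least 1 log2 unit with a call were found for 6 of the 10 genes, 4 higher and 2 lower, against 18.7% of all genes. The members were chosen with earlier results of these data known, so these counts do not test for an excess over the background. By gene the median difference was 0.28, with -0.086 over all genes, so its sign was opposite to that of the median over the 15 probes. In each of the 13 probes without overlap the exact two-sided permutation test gave p = 0.029, the smallest that 4 arrays against 4 can give. That value follows from the lack of overlap and adds nothing to it.

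**Figure D1:**
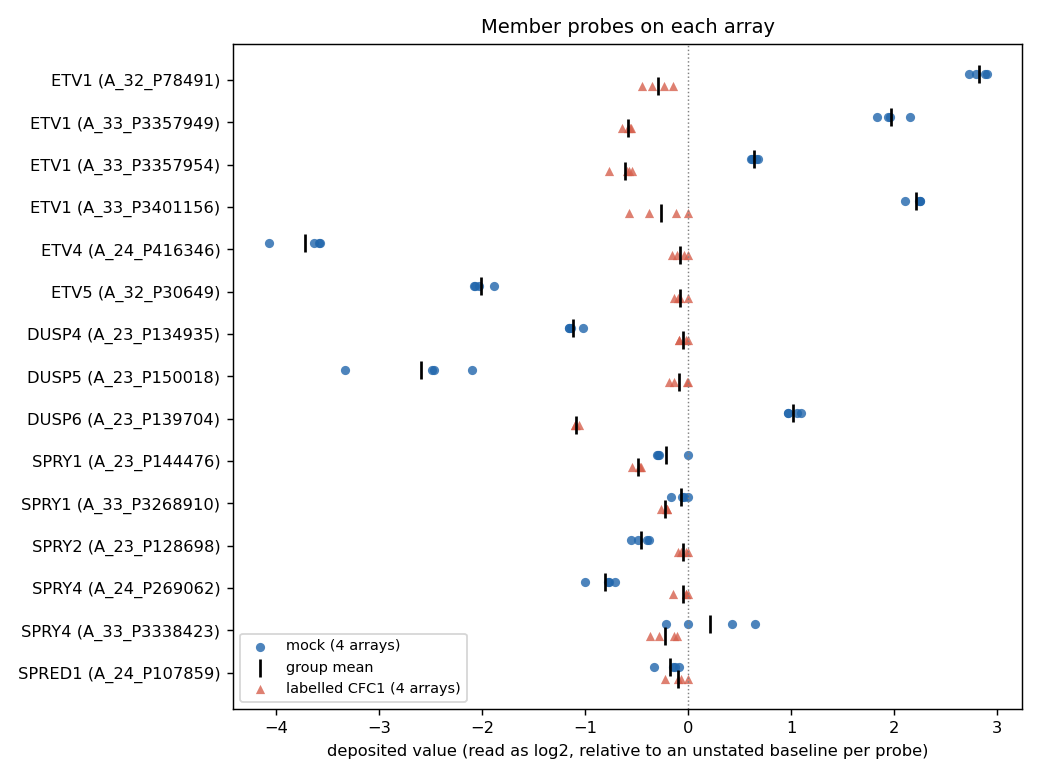
Deposited value of each of the 15 member probes on each of the 8 arrays, read as log2 and relative to an unstated baseline per probe (horizontal axis). Circles are mock arrays, triangles are arrays labelled CFC1 and vertical bars are group means. The triangles lie near 0 for most probes, while the circles spread from about -4.07 for ETV4 to 2.90 for an ETV1 probe.

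**Figure D2:**
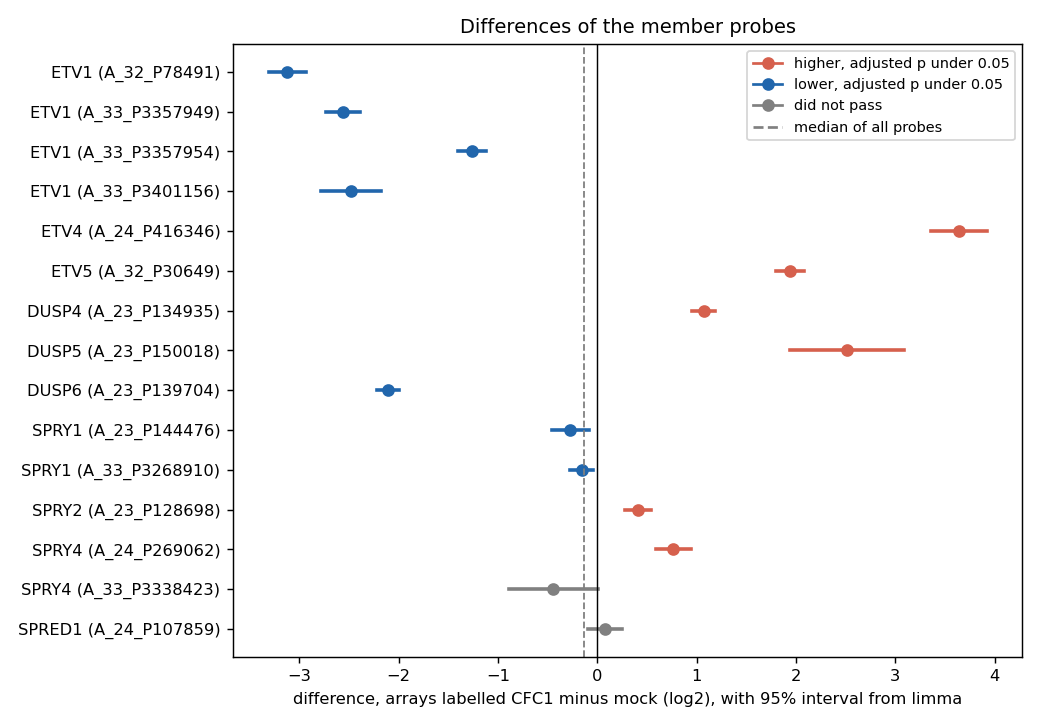
Difference of each member probe, arrays labelled CFC1 minus mock (log2), with its 95% interval from limma (n = 4 a group). Colour shows the direction of a call at a limma adjusted p under 0.05, and the dashed line is the median of all probes. The ETV and DUSP families each hold probes on both sides of 0.

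The sequences around the start of transcription are shown for genes of each direction: ETV1 and DUSP6, which were lower, and SPRY2 and SPRY4, which were higher on at least 1 probe. They are RefSeq sequences of build GRCh38.p14, 300 bases each, from 250 before to 50 after a start, all on the minus strand and written 5′ to 3′. The windows are chr7:13991376-13991675 for ETV1, chr12:89352452-89352751 for DUSP6, chr13:80341077-80341376 for SPRY2 and chr5:142324198-142324497 for SPRY4. ETV1 and SPRY2 have several windows, of which the one with most matches is shown, while DUSP6 and SPRY4 have a single window. Capitals mark matches on either strand to the ETS core CCGGAA, the capicua motifs TGAATGAA and TGAATGGA, the AP-1 motif TGANTCA, the CRE motif TGACGTCA or the CArG box of serum response factor.
ETV1: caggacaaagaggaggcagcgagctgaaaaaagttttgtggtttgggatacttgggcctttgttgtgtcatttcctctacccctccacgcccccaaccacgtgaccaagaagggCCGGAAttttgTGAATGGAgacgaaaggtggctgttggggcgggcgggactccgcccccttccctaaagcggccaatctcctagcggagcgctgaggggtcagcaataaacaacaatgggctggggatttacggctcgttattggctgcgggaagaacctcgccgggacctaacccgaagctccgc
DUSP6: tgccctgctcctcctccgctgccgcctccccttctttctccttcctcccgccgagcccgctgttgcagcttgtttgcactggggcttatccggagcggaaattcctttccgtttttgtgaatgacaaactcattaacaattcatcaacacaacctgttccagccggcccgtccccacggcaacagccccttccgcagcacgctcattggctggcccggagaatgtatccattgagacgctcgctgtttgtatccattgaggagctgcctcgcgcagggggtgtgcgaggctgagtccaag
SPRY2: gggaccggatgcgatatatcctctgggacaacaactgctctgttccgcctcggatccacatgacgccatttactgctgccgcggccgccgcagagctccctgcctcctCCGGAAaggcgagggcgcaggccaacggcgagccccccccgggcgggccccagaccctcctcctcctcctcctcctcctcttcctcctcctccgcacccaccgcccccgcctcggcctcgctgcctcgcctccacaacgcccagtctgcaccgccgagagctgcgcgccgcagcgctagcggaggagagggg
SPRY4: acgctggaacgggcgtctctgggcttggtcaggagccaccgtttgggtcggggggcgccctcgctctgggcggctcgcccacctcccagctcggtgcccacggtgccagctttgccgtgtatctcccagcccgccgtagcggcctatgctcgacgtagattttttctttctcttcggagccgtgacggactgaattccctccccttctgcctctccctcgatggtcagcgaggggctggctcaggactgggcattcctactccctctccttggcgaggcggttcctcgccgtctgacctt
The ETV1 window holds 1 ETS core and, shortly after it, 1 capicua motif TGAATGGA, and the SPRY2 window holds 1 ETS core. The DUSP6 and SPRY4 windows hold no match to these letters, which says nothing about binding elsewhere. Over all 34943 windows of this length in the RefSeq table, 17.2% hold the ETS core, 1.65% TGAATGAA, 1.02% TGAATGGA, 7.72% the AP-1 motif, 1.84% the CRE motif and 1.30% the CArG box. These shares are per window and do not apply to a window picked for having most matches. For the same reason the matches of the genes shown cannot be compared with each other. Windows were at hand for 6 of the 10 genes, 14 windows in all. Of the others, 3 windows hold 1 ETS core each: a pair of largely overlapping ETV1 windows and 1 of the 2 SPRY1 windows. Matches are descriptions of these letters and not binding sites.

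The PEA3 group split. ETV4, also known as PEA3, had -3.59, -4.07, -3.58 and -3.63 in mock replicates 1 to 4 and -0.16, -0.11, -0.043 and 0 in the arrays labelled CFC1. All 4 arrays labelled CFC1 lay far above all 4 mock arrays, and the lowest mock value was that of replicate 2. The difference was 3.64 (SE 0.12, 95% interval 3.36 to 3.92, limma adjusted p = 2.13e-07), or 12.5-fold if the logarithm is binary, and 1.59% of all probes differed by more in either direction. After quantile normalization the difference was 2.54, still called, and the fold correspondingly smaller. ETV5, also known as ERM, had -2.08, -1.89, -2.04 and -2.07 in the mock arrays and -0.097, 0, -0.14 and -0.080 in the arrays labelled CFC1. Its groups were also apart, with the mock arrays within a narrow range. ETV5 was higher by 1.94 (SE 0.061, 95% interval 1.80 to 2.08, limma adjusted p = 1.77e-07), or 3.83-fold.

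ETV1, also known as ER81, went the other way on all 4 of its probes. On probe A_32_P78491 the mock arrays had 2.73, 2.79, 2.88 and 2.90 and the arrays labelled CFC1 -0.45, -0.15, -0.35 and -0.23, a difference of -3.12 (SE 0.080, 95% interval -3.31 to -2.93, limma adjusted p = 6.47e-08). Probe A_33_P3357949 had 2.15, 1.94, 1.83 and 1.96 in the mock arrays and -0.58, -0.57, -0.56 and -0.64 in the others, a difference of -2.56 (SE 0.073, 95% interval -2.73 to -2.39, limma adjusted p = 1.06e-07). Probe A_33_P3401156 had 2.25, 2.25, 2.10 and 2.24 against -0.12, -0.38, 0 and -0.58, a difference of -2.48 (SE 0.13, 95% interval -2.78 to -2.18, limma adjusted p = 2.36e-06). The mock arrays were the higher group on each of these, and the arrays labelled CFC1 were most scattered on the last. Probe A_33_P3357954 showed the smallest of the 4 differences, with 0.68, 0.66, 0.62 and 0.61 in the mock arrays and -0.77, -0.57, -0.59 and -0.54 in the arrays labelled CFC1, -1.26 (SE 0.060, 95% interval -1.40 to -1.12, limma adjusted p = 1.51e-06). All 4 probes are annotated to the same transcript, NM_004956, and where each lies in it is not given. Their differences were unequal beyond the spread between arrays in 5 of 6 pairs, by an exact two-sided permutation test on the within-array difference of the probes (p = 0.029 each, 0.038 after Benjamini-Hochberg adjustment over 8 pairs of probes). The exception was A_33_P3357949 against A_33_P3401156, whose differences lay -0.077 apart (exact p = 0.543). The mean of the 4 probes was -2.35 (SE 0.041), a value that lies between those of the single probes.

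Within the PEA3 group every pair of genes changed by unequal amounts on the probes measured. On the same array, ETV1 minus ETV4 went from 5.63 ± 0.24 (SD, n = 4) in the mock arrays to -0.37 ± 0.090 in the arrays labelled CFC1, a shift of -5.996. ETV1 minus ETV5 shifted by -4.29, and ETV4 minus ETV5 by 1.70. Each gave an exact two-sided permutation p of 0.029, or 0.038 after Benjamini-Hochberg adjustment over 12 pairs within families. ETV4 and ETV5 had 1 probe each. ETV1 probes A_32_P78491 and A_33_P3357954 shifted by -1.86 against each other, more than ETV4 against ETV5. For that pair, unequal genes cannot be told from unequal probes. A constant added to all values of an array leaves shifts within that array unchanged. Quantile normalization does not, as it moved the difference of ETV4 to 2.54 and that of ETV5 to 1.44.

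The DUSP phosphatases also went in both directions. DUSP5, a nuclear phosphatase with ERK as its main substrate, had -2.49, -2.47, -2.10 and -3.34 in the mock arrays and -0.19, 0, -0.016 and -0.14 in the arrays labelled CFC1. The mock arrays were all lower and were widely scattered, with replicate 4 lowest. DUSP5 was higher by 2.51 (SE 0.25, 95% interval 1.94 to 3.09, limma adjusted p = 8.23e-05), or 5.71-fold, and after quantile normalization it was 1.80. DUSP4, a nuclear phosphatase of ERK and other MAP kinases, had -1.14, -1.15, -1.02 and -1.15 in the mock arrays and -0.090, -0.089, 0 and -0.017 in the arrays labelled CFC1. Its groups were tight and apart, and it was higher by 1.07 (SE 0.051, 95% interval 0.95 to 1.19, limma adjusted p = 1.55e-06), or 2.1-fold.

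DUSP6, the cytoplasmic ERK phosphatase MKP-3, was lower. It had 1.09, 0.97, 1.06 and 0.97 in the mock arrays and -1.07, -1.10, -1.10 and -1.09 in the arrays labelled CFC1. The arrays labelled CFC1 agreed within 0.016 (SD, n = 4), the tightest group of any member probe, and lay well below every mock array. The difference was -2.11 (SE 0.047, 95% interval -2.22 to -2.002, limma adjusted p = 3.34e-08), or 4.32-fold lower. Both groups stood away from the baseline on opposite sides, unlike the other DUSP members, whose arrays labelled CFC1 lay close to it. DUSP4 minus DUSP6 shifted by 3.18 between the groups, DUSP5 minus DUSP6 by 4.62, and DUSP4 minus DUSP5 by -1.44, each with an exact permutation p of 0.029 and an adjusted p of 0.038. DUSP4 and DUSP5 had 1 probe each. Their shift was smaller than the -1.86 between ETV1 probes A_32_P78491 and A_33_P3357954, so unequal genes cannot be told from unequal probes.

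The Sprouty and SPRED genes, membrane-linked inhibitors of receptor tyrosine kinase and RAS signalling, showed small differences. SPRY2 had -0.40, -0.56, -0.38 and -0.48 in the mock arrays and 0, -0.10, -0.070 and -0.026 in the arrays labelled CFC1. The mock arrays were all lower, and SPRY2 was higher by 0.41 (SE 0.056, 95% interval 0.27 to 0.54, limma adjusted p = 0.000576), a 1.32-fold difference. This size is not unusual on these arrays, since 45% of all probes differed by more.

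SPRY4 depended on the probe. Probe A_24_P269062, annotated to NM_030964, had -0.78, -0.71, -0.77 and -1.001 in the mock arrays and -0.022, -0.15, -0.026 and 0 in the arrays labelled CFC1. All mock arrays were lower, and the difference was 0.76 (SE 0.075, 95% interval 0.59 to 0.94, limma adjusted p = 8.62e-05). Probe A_33_P3338423, annotated to another SPRY4 transcript, NM_001293289, had 0.65, 0.43, -0.22 and 0 in the mock arrays and -0.14, -0.28, -0.11 and -0.37 in the arrays labelled CFC1. The mock arrays spread widely, with replicate 3 among the arrays labelled CFC1 and the other 3 above them, and the difference of -0.44 (SE 0.19, 95% interval -0.89 to 0.007, limma adjusted p = 0.113) did not pass. Without mock replicate 3 it was -0.59 and passed (limma adjusted p = 0.0279). The probes changed by unequal amounts: the first minus the second went from -1.03 ± 0.37 (SD, n = 4) to 0.18 ± 0.13 (exact permutation p = 0.029, adjusted p = 0.038). Their mean, 0.16 (limma adjusted p = 0.273), describes neither.

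SPRY1 was lower by a margin close to the noise. Probe A_23_P144476 had -0.31, -0.29, -0.28 and 0 in the mock arrays and -0.55, -0.47, -0.46 and -0.48 in the arrays labelled CFC1, a difference of -0.27 (SE 0.078, 95% interval -0.46 to -0.088, limma adjusted p = 0.0252). Mock replicate 4 stood above the other 3 mock arrays. The call was lost without any single array labelled CFC1 (-0.28 to -0.25, adjusted p from 0.0501 to 0.0687) and when the E1A control spots set the scale (-0.19, adjusted p = 0.0503). Probe A_33_P3268910 had -0.17, 0, -0.044 and -0.059 in the mock arrays and -0.21, -0.27, -0.21 and -0.22 in the others, a difference of -0.16 (SE 0.050, 95% interval -0.28 to -0.040, limma adjusted p = 0.0383). It lay within 0.1 log2 unit of the median of all probes, and its call was lost under 12 of 17 alternatives. Among these were a replicate block (adjusted p = 0.0762), scaling to the E1A control spots (-0.080, adjusted p = 0.35) and the omission of each array in turn except mock replicate 1 (-0.16 to -0.14). The probes' differences were not told apart (-0.12, exact permutation p = 0.229, adjusted p = 0.261), and their mean passed (-0.21, limma adjusted p = 0.0054).

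SPRED1, the SPRED protein that works with neurofibromin on RAS, had -0.086, -0.33, -0.15 and -0.13 in the mock arrays and -0.22, 0, -0.074 and -0.097 in the arrays labelled CFC1. The groups overlapped, and the difference of 0.076 (SE 0.074, 95% interval -0.098 to 0.25, limma adjusted p = 0.453) did not pass. The interval leaves room for a small difference of either sign and does not show that the groups were equal. Of the 6 pairs within the Sprouty and SPRED family, 3 changed by unequal amounts at an adjusted p of 0.038: SPRY1 against SPRY2 (-0.62), SPRY1 against SPRED1 (-0.29) and SPRY2 against SPRED1 (0.33). The 3 pairs with SPRY4, taken as the mean of its probes, did not pass (exact permutation p from 0.086 to 0.629). The shifts of all 6 pairs were smaller than the 1.21 between the probes of SPRY4. Unequal genes therefore cannot be told from unequal probes.

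**Figure D3:**
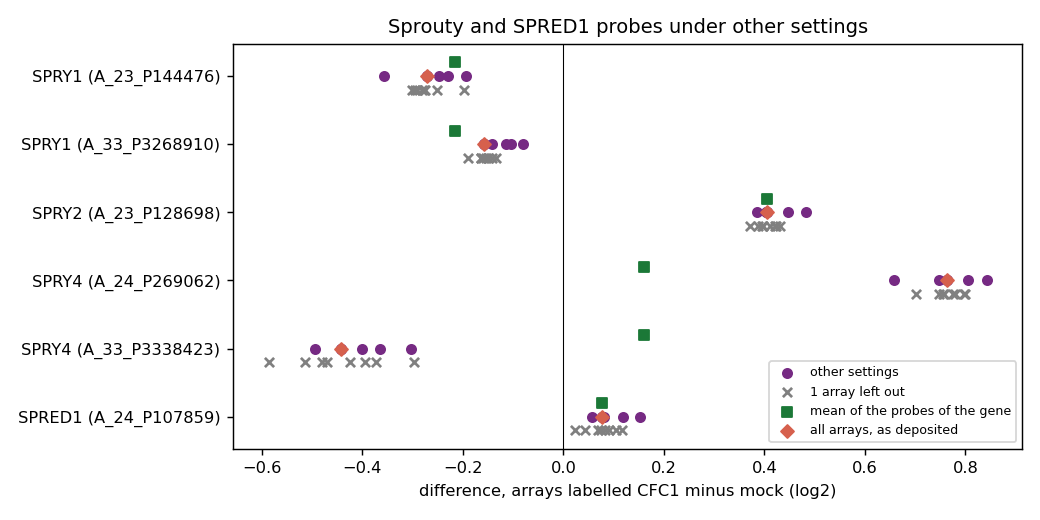
Difference of each Sprouty and SPRED1 probe, arrays labelled CFC1 minus mock (log2), with all arrays as deposited (diamonds), with 1 array left out (crosses), under other settings read as log2 (circles) and for the mean of the probes of the gene (squares). Apart from the square, the 2 SPRY4 probes stay on opposite sides of 0, and the square of SPRY4 lies between them.

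Other ERK-responsive genes were also divided, with more of them higher. Of 20 further genes of this kind, all measured, 11 were higher, 4 were lower and 5 did not pass, where 29.7% of all genes were called higher and 28.2% lower. Their median was 0.43, with -0.086 over all genes. This list, too, was chosen with earlier results of these data known, so its counts do not test for an excess. The largest differences were those of DUSP2, a nuclear inducible phosphatase (3.91, limma adjusted p = 2.38e-08), RASSF8 (2.70), IL17RD, the FGF signalling inhibitor known as SEF (2.33), and the ephrin receptor EPHA2 (2.15, adjusted p = 0.0233). The call of EPHA2 was lost without mock replicate 1 or without replicate 3 or 4 of the arrays labelled CFC1 (2.10 to 2.13, adjusted p from 0.0531 to 0.0551). RASSF8 was 1.79 after quantile normalization. The 4 that were lower were PHLDA1 (-1.55), SPRED2, a relative of SPRED1 (-0.72), the transcription factor KLF10 (-0.48) and the stress-induced phosphatase DUSP1 (-0.35). Among the AP-1 and cell cycle genes of this list, chosen after their values were seen, FOSL1 was higher by 2.09 and CCND1, cyclin D1, by 0.54.

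Of 12 other dual-specificity phosphatases measured, 6 were higher, 3 lower and 3 did not pass, with a median of 0.33, where 29.7% of all genes were higher and 28.2% lower. DUSP1, DUSP2 and DUSP7, 3 of the 9 called, are also counted in the ERK-responsive list. Besides DUSP2, DUSP16, which acts on JNK and p38, was higher by 2.90, the atypical phosphatase DUSP22 by 2.004 and DUSP3 by 1.01. The 3 that were lower were DUSP10, another phosphatase of JNK and p38 (-0.99), DUSP19 (-0.83) and DUSP1. After quantile normalization 1 of the list was called lower. Of the cytoplasmic relatives of DUSP6, DUSP7 was higher by 1.001 with overlapping groups (limma adjusted p = 0.0193), and DUSP9 had 0.14 and did not pass (adjusted p = 0.416). These 2 were also named after their values were seen.

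Of 12 measured regulators of the PEA3 genes and of ERK targets, 2 were higher, 5 lower and 5 did not pass, with a median of -0.14. A called share of this size is near the 57.9% of all genes, and the direction of the list was not tested. ATXN1, a partner of capicua, was lower (-1.13), as were ETV6 (-0.77) and ETV3 (-0.77), both ETS repressors, and MRTFB, a cofactor of serum response factor (-0.52, from -0.89 and -0.15 on its 2 probes, and -0.33 as a mean after quantile normalization). The remaining gene that was lower was capicua itself, CIC (-0.30). The 2 that were higher were serum response factor, SRF (0.43), and the ETS repressor ERF (0.42).

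Of 23 genes listed for the kinases and adaptors of the cascade, 18 were measured and 5 were not analysed here. Of the 18, 7 were higher, 6 lower and 5 did not pass, with a median of -0.14, where 29.7% of all genes were higher and 28.2% lower, so the counts lie near the background. The adaptor FRS2, which couples FGF receptors to RAS, was lower (-2.55), and the RAS activator SOS1 was lower (-1.36, from -1.91 to -0.81 on its 2 probes). HRAS was higher by 1.89 and the adaptor SHC1 by 1.44. Of the measured MEK and ERK genes, named after their values were seen, MAPK3, which encodes ERK1, was lower (-0.29). MAP2K2, which encodes MEK2, was lower (-0.60), while MAP2K1 had -0.042 and did not pass. Among the RPS6KA kinase genes, also named after their values were seen, RPS6KA1 was higher by 0.34 and RPS6KA3 by 0.26. RPS6KA6 was lower (-1.004), and RPS6KA2 had -0.080 and did not pass. SOS1 was -0.87 after quantile normalization.

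Among negative regulators of RAS and RAF, 9 of 12 were measured and 3 were not analysed here. Of the 9, 4 were higher, 4 lower and 1 did not pass, with a median of 0.12, against the same 29.7% and 28.2%. RASAL2, a RAS GTPase-activating protein, was higher by 1.93 and the ubiquitin ligase CBL by 0.96. CBLB, its relative, was lower (-0.96), as was the GTPase-activating protein RASA2 (-0.63, or -0.36 after quantile normalization). Of 19 receptor tyrosine kinases, 18 were measured and 1 was not analysed here: 6 were higher, 9 lower and 3 did not pass, with a median of -0.30, against the same background. ALK, a driver of neuroblastoma, was higher by 3.34 and the HGF receptor MET by 2.42. PDGFRA was lower (-2.78), and ERBB4 was lower as a mean of 2 probes (-2.08) that stood at -4.03 and -0.13. In all 6 lists, then, called genes were found in both directions, and the members' split was not tested against that of any list.

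**Figure D4:**
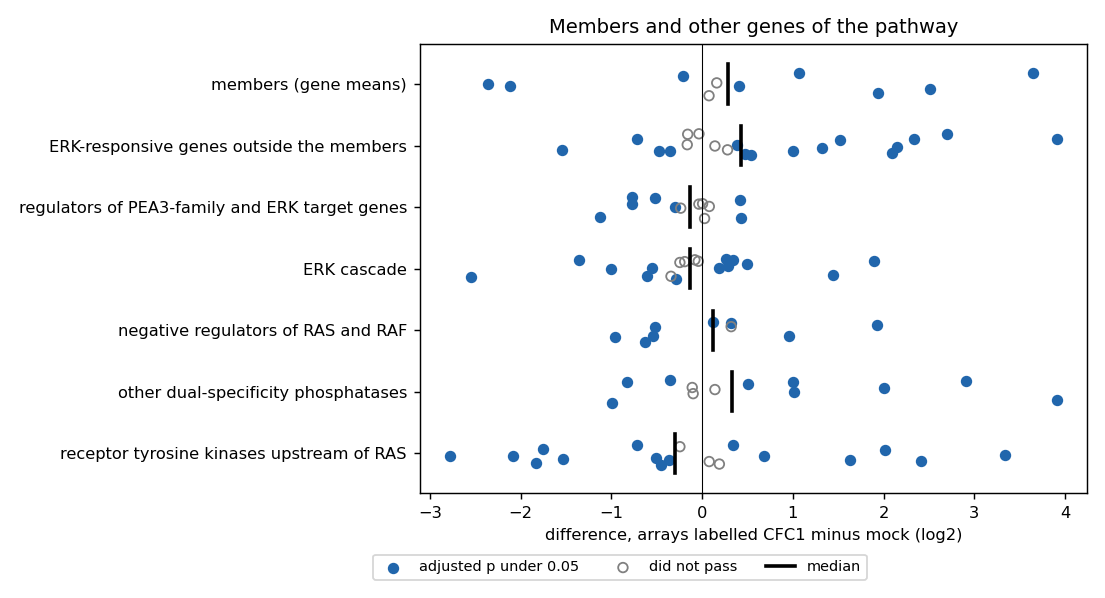
Difference of each gene, arrays labelled CFC1 minus mock (log2, mean of the probes of a gene), for the members and for 6 lists of other pathway genes. Filled points passed a limma adjusted p of 0.05, open points did not, and black bars are medians. DUSP1, DUSP2, DUSP7 and DUSP9 stand in both the ERK-responsive list and the phosphatase list.

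Markers of cell types were compared in the same way, as differences, against the 29.7% higher and 28.2% lower of all genes. Of 11 measured sympathoadrenal markers of neuroblastoma, 1 was higher and 8 were lower. The mean of the list ran from 0.86 to 0.93 over the mock arrays and from -0.084 to 0.027 over the arrays labelled CFC1. Of 10 fibroblast and mural markers 9 were lower and 1 did not pass, with list means from 1.10 to 1.17 in the mock arrays and from -0.26 to -0.17 in the others. Of 8 Schwann and glial markers 1 was higher and 5 lower (list means 0.17 to 0.45 against -0.34 to 0.058). Of 10 endothelial markers 1 was higher and 2 lower (0.12 to 0.51 against -0.17 to 0.12). Of 10 epithelial markers 2 were higher and 3 lower (-0.30 to -0.064 against -0.26 to -0.12). Of 8 immune markers 1 was higher and 1 lower (-0.17 to 0.12 against -0.22 to 0.14). The part of these shifts in the ERK output differences was not tested, and because values are relative, whether any marker was absent cannot be read from them. In bulk RNA, a change in the share of cells and a change in RNA per cell cannot be told apart.

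The genes beside each member on its chromosome gave a local comparison. For each member, the 10 measured genes on each side in RefSeq gene order were taken. The median over the 20 neighbours ran from -0.46 beside SPRED1 to 0.019 beside SPRY1. Beside ETV4 it was -0.11, with 7 neighbours higher and 6 lower, and none of the 20 exceeded 1.01, against 3.64 for ETV4. Beside DUSP5 the median was -0.28, with 2 higher and 11 lower, and beside DUSP4 it was -0.21, with 2 higher and 14 lower, so both were higher than their surroundings. Beside ETV5 the median was -0.018 and the highest neighbour reached 3.89. Beside ETV1 the median was -0.13, with 1 higher and 6 lower and the lowest at -3.54, and beside DUSP6 it was -0.19, with 2 higher, 8 lower and the lowest at -2.76. Lower still than the member were 4 of the 20 neighbours of ETV1 and 1 of the 20 of DUSP6. The neighbours were compared as a description, with no test.

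**Figure D5:**
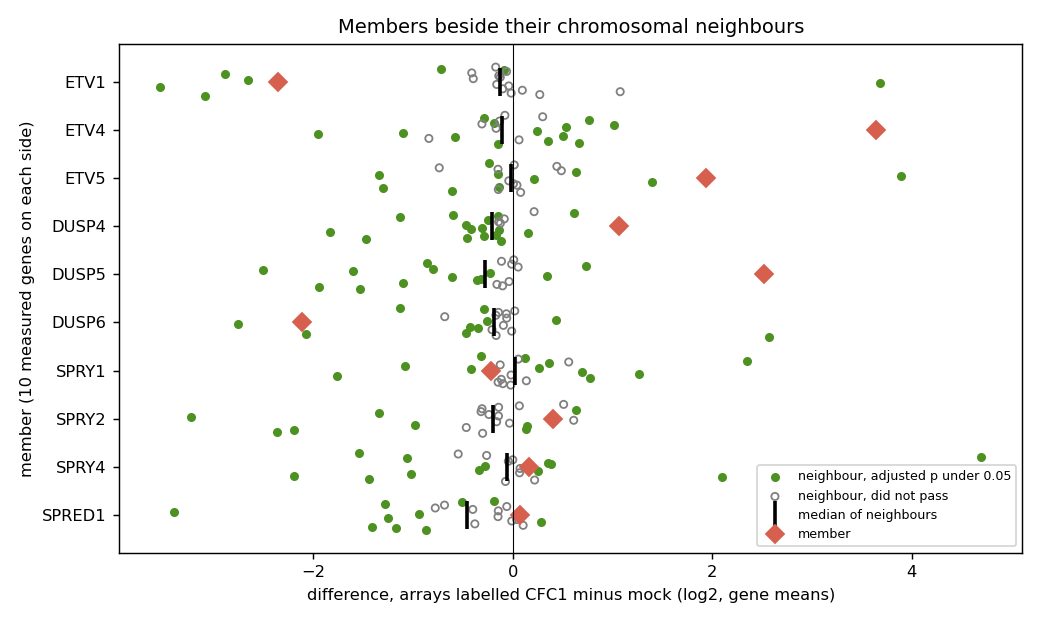
Difference of each member (diamonds) and of the 10 measured genes on each side of it in RefSeq order (circles), arrays labelled CFC1 minus mock (log2, gene means). Filled circles passed a limma adjusted p of 0.05, open circles did not, and bars are medians of the neighbours. ETV4, DUSP4 and DUSP5 lie to the right of all their neighbours.

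The genes whose values lay nearest to a member over the 8 arrays were found for the member of each family with the largest difference of gene means, after each gene's own mean was subtracted. In the Sprouty family this was SPRY2, although SPRY4 probe A_24_P269062 differed by more (0.76). Nearest to ETV4 were SMARCA2 (mean absolute distance 0.037 log2 units), LRRC73 (0.077) and ERICH2 (0.081), with differences of 3.60, 3.73 and 3.71. ERICH2 is a mean of 4 probes from 1.75 to 6.29. Nearest to DUSP5 were CAVIN1 (0.14), LINC01152 (0.15) and ARHGAP42 (0.15), with differences of 2.49, 2.61 and 2.64. CAVIN1 is a mean of probes at -0.19 and 5.16, and ARHGAP42 of 4 probes from 0.46 to 4.29, so neither mean describes a single probe. Nearest to SPRY2 were ID4, RNF167 and SLC35F6, each at 0.023, with differences of 0.42, 0.39 and 0.41. After quantile normalization ID4 was 0.79 and RNF167 0.63, while SPRY2 was 0.39 and SLC35F6 0.40, so the likeness of the first pair to SPRY2 did not hold on that scale. With 8 arrays in 2 groups, likeness of this kind mostly reflects a similar size of the difference between the groups.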

How the data were processed

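RNA of 4 mock samples and 4 samples labelled CFC1 was measured on single-colour arrays labelled with Cyanine3, per the labels' protocols. The authors deposited 1 value per probe and array, on a logarithmic scale that was read here as log2, with an unstated baseline per probe. How features were extracted, corrected for background and scaled, and which logarithm was taken, is not given in the sources used here. Background and saturation flags are not in the table. The number of arrays limits the precision. From 50739 rows, 140 control spots were left out and 50599 probes were kept without a filter. Of these, 31993 had 1 gene symbol, none had several and 18606 stayed unnamed. Symbols were updated through RefSeq (GRCh38.p14) by accession for 28423 probes, by symbol for 3069 and by synonym for 479, and 22 kept the name of the annotation. Array coordinates are not given.

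Each probe was fitted on its own with limma 3.58.1 in R 4.3.3 (lmFit, eBayes without a trend, all 8 arrays, no block). P-values are two-sided, with Benjamini-Hochberg adjustment over all probes and a threshold of 0.05. List genes, nearest genes, CFC1 and neighbours came from the same fit on the mean of a gene's probes, over 21524 genes. Exact permutation tests ran over 70 arrangements of the arrays, in Python 3.11.15. The fits were tested on simulated data. All members were named, and from each list up to 4 called genes with the largest difference and no overlap. Genes that complete a count of 5 or fewer, and others so marked, were chosen after their values were seen. Members and lists were chosen with earlier results of these data known. Alternatives were quantile normalization, median centring, array weights, a variance trend, unmoderated variances, the replicate block, gene means or single probes, E1A control spots, leaving out each array and, added later, natural logarithms.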

Additional observations from a re-analysis of the deposited data

Results flagged for a closer look

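In 7 of 96 groups of 4 arrays, 1 array stood apart from the other 3 by Dixon's ratio. Chance gives about 1 in 20 for independent groups, which these are not. For ETV1 probe A_33_P3401156, mock replicate 3 had 2.104 and the others 2.244 to 2.253. For ETV4, mock replicate 2 had -4.074 and the others -3.634 to -3.579. For DUSP4, mock replicate 3 had -1.023 and the others -1.154 to -1.140. In these 3 probes the array that stood apart remained far from every array labelled CFC1. For SPRY1 probe A_23_P144476, mock replicate 4 had 0.000 and the others -0.308 to -0.280, and without it the difference was -0.20 and still passed. Among other named genes, mock replicate 4 had -1.379 for DUSP22, with -2.431 to -2.309 in the others. For SMARCA2, the gene nearest to ETV4, mock replicate 2 had -4.120 and the others -3.702 to -3.628. SMARCA2 was picked for its likeness to ETV4, so this is not a separate event. For CAVIN1, replicate 2 of the arrays labelled CFC1 had 0.013 and the others -0.047 to -0.038.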

How the results depend on the processing

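The ETV, DUSP and SPRY2 probes kept their direction and their call under all 17 alternatives run for each. So did the missing call of SPRED1, with differences from 0.023 to 0.15. Among these alternatives, natural logarithms could not change any call. For a gene with 1 probe, the gene mean holds the same values as the probe. With the mean of a gene's probes in place of single probes, 3 members were called lower in place of 7 probes, because fewer features are counted, and SPRY4 had 0.161 for both probes (adjusted p = 0.273), which ended the call of A_24_P269062 (0.70 to 0.80 with 1 array left out) and reversed the sign of A_33_P3338423 (-0.586 to -0.297 with 1 array left out, past the threshold only without mock replicate 3). SPRY1 probe A_23_P144476 was -0.194 on the scale of the E1A control spots and did not pass, and ran from -0.301 to -0.198 with 1 array left out. SPRY1 probe A_33_P3268910 lost its call with quantile normalization (-0.105), median centring (-0.115), array weights (-0.142), E1A control spots (-0.080) and the replicate block (-0.157), and ran from -0.190 to -0.135 with 1 array left out. After quantile normalization, 1 of the other dual-specificity phosphatases was called lower in place of 3. All other counts stayed within 1.5 times. For CAVIN1, 1 of its 2 probes was at -0.192. The causes were not tested.

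Same-numbered arrays of the groups had deviations from the group means that correlated at 0.132, 0.197, 0.095 and 0.173 for numbers 1 to 4, which does not pair them by the rule of over 0.1 in each. Every array correlated best with its own number, a hint from the data and not from the design. With the replicate block, 6 member probes were called higher and 6 lower. Quantile normalization, median centring and the E1A control spots moved the median difference of all probes from -0.135 to -0.055, -0.092 and -0.057. Read as natural logarithms, all differences grow and no call changes. Without background flags, how near background any probe lay is unknown.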
